A study of Mus musculus with 2 samples.

Results

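The genes that write and erase DNA methylation were compared between granulocyte-monocyte progenitors (GMPs) of non-tumor-bearing (NTB) mice and GMPs of mice with mammary tumors. The group held 7 genes, chosen by symbol from the 24421 symbols of the deposited values: Dnmt1, Dnmt3a, Dnmt3b, Uhrf1, Tet1, Tet2 and Tet3. All 7 were listed and passed the minimum mean level set for a ratio. The control library (NTB-GMP) came from female NTB mice, and the other library (4T1-GMP) came from females that carried 4T1 cells, a mouse mammary carcinoma line, in the mammary gland. GMPs were purified from bone marrow by flow cytometry, no drug is named for either group, and the labels place both on an F1 semi-syngeneic H-2b/d background, without an age or the number of mice behind each library. Bulk RNA-seq gave 1 library per group, so there was no replicate error and no test. Every interval below covers counting error only, and compares these libraries rather than the conditions.

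The values were RPKM, which scale the reads of a gene to its length and to the library size, and the reads behind them could be recovered for each of the 14833 symbols above 0. The library sizes implied by the RPKM came to 10180365 reads in NTB-GMP and 30016263 in 4T1-GMP. Rn45s, a precursor of ribosomal RNA, took 17.0% and 6.98% of these sizes, and leaving them out would move every log2 ratio by -0.16. The markers of the GMP gate were present in both libraries: Kit was at 78.5 RPKM in the control library and 49.1 in 4T1-GMP, Cd34 at 154 and 59.4, and Fcgr3, which encodes CD16, at 53.1 and 28.6. Ly6a, which encodes the Sca-1 antigen that GMPs lack, was listed at 0 and 0.27 RPKM. Each ratio sets 4T1-GMP over NTB-GMP on the log2(RPKM + 0.1) scale, and 10378 genes, called tested here, had a mean level of 1 RPKM or more over both libraries. Their median log2 ratio was 0.05, with quartiles of -0.26 and 0.32.

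DNA methylation in mammals is placed mainly on cytosines that precede guanines (CpG sites). DNMT1 copies the mark onto the new strand after replication, and it is brought there by UHRF1, which recognizes hemimethylated CpG sites. DNMT3A and DNMT3B place the mark at sites that had none. The TET enzymes oxidize methylated cytosine with iron and 2-oxoglutarate, and the oxidized bases are then diluted by replication or cut out and repaired. In blood formation, DNMT3A and TET2 are known for mutations that recur in clonal hematopoiesis and myeloid leukemia, and loss of either in mice favors self-renewal over differentiation.

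The windows around the transcription starts of the genes were themselves of unequal CpG content. RefSeq windows of 300 bases on GRCm38.p6 (250 before and 50 after each start) were matched for all 7 genes, and the window with the most CpG sites was taken where a gene had several starts. The number of CpG sites was 33 in Dnmt1 and 33 in Uhrf1, 47 in Dnmt3a, 30 in Dnmt3b, 17 in Tet1, 57 in Tet2 and 22 in Tet3, against a median of 7 over all 32851 windows and 21 over the 10126 windows of tested genes. The windows of Dnmt1 (chr9:20952574-20952873, minus strand), Uhrf1 (chr17:56304063-56304362, plus strand), Dnmt3b (chr2:153649199-153649498, plus strand) and Tet3 (chr6:83441629-83441928, minus strand) are shown because the first pair is the maintenance machinery and the second pair holds the de novo writer and the eraser that were furthest below their NTB-GMP level. Capitals mark words of the E2F type (TTTGGCGC, TTTCCCGC, TTTGCCGC or TTTCGCGC on either strand), E2F factors being known regulators of S-phase genes.
Dnmt1: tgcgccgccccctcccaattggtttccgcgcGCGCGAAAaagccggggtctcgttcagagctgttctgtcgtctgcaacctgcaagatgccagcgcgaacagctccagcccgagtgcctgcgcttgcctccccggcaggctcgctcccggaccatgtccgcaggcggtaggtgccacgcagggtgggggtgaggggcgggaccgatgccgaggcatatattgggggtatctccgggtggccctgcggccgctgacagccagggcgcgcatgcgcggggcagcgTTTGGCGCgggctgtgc
Uhrf1: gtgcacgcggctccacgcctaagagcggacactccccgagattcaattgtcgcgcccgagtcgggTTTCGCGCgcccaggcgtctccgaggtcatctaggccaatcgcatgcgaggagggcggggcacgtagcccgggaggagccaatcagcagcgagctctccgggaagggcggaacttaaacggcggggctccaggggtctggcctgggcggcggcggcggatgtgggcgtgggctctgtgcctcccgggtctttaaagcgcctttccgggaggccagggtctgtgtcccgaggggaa
Dnmt3b: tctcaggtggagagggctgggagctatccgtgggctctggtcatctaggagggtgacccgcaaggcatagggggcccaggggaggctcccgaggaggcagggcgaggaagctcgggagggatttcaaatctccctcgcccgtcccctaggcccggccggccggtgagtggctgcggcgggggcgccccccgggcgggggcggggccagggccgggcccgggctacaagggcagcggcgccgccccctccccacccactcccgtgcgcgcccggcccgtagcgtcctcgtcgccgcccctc
Tet3: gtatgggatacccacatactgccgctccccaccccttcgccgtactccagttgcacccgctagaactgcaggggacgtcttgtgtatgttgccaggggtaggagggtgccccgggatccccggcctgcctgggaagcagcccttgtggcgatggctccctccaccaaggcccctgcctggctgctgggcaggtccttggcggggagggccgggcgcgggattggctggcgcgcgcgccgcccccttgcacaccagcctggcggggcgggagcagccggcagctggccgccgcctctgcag
Such a word was found in the window of Dnmt1 (2 places) and of Uhrf1 (1 place), and in none of the windows of the other 5 genes. It was present in 2.26% of all windows and in 4.197% of those of tested genes. These shares are over every window, without the choice of the one with the most CpG sites. Each of the words holds a CpG site, so the members and the shares are not a like comparison. The Dnmt1 and Uhrf1 windows of other annotated starts held none, and the deposited values, which are per gene, do not tell which start was used.

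The maintenance genes were far more abundant than the other members in both libraries. In NTB-GMP, Dnmt1 reached 106 RPKM (95% Poisson interval on the reads 103 to 108) and Uhrf1 at 83.8 RPKM (80.9 to 86.8). These levels exceeded those of 95.4% and 93.9% of tested genes. The next member, Tet3, lay 4.39 times below Uhrf1 at 19.1 RPKM (18.3 to 19.9). Tet2 followed at 18.3 RPKM (17.5 to 19.2), and the intervals of Tet3 and Tet2 overlapped, so that their order was not resolved. The de novo enzymes were lower, with Dnmt3b at 14.6 RPKM (13.5 to 15.8) and Dnmt3a at 14.2 RPKM (13.4 to 14.9), again with overlapping intervals. Tet1 was lowest at 5.41 RPKM (5.03 to 5.80).

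In 4T1-GMP the order of the values was the same except that Tet2 lay above Tet3, a pair whose order was not resolved in NTB-GMP. Dnmt1 was at 115 RPKM (114 to 117) and Uhrf1 at 98.7 RPKM (96.9 to 101). Tet2 came next at 14.7 RPKM (14.3 to 15.2), 6.71 times below Uhrf1. It was 1.23 times the level of Tet3, and the intervals of these neighbors did not overlap in this deeper library. Tet3 at 12.0 RPKM (11.6 to 12.4), Dnmt3b at 11.6 RPKM (11.02 to 12.2) and Dnmt3a at 11.5 RPKM (11.1 to 11.9) could not be put in order. Tet1 stayed lowest at 4.06 RPKM (3.87 to 4.26). For each of the 7 genes the interval in NTB-GMP did not overlap that in 4T1-GMP. The share of all tested genes with such intervals was not computed, so this count has no background beside it.

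**Figure D1:**
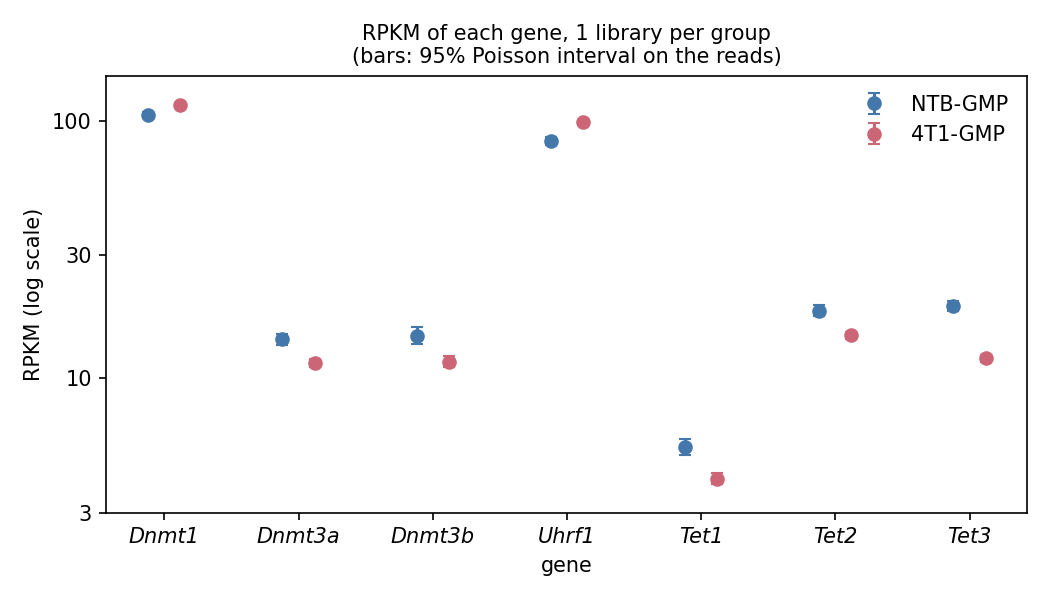
RPKM (log axis) of the 7 genes in the NTB-GMP library (blue) and the 4T1-GMP library (red), with points for the single library of each group and bars for the 95% Poisson interval on its reads. Dnmt1 and Uhrf1 sit between 83.8 and 115 RPKM in both libraries, while the other genes sit at 19.1 RPKM or lower and are lower in 4T1-GMP.

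RPKM are per length, so these levels depend on the gene lengths the authors used. The lengths implied by the values were 6304 bases for Dnmt1, 3651 for Uhrf1, 9947 for Dnmt3a, 4327 for Dnmt3b, 14082 for Tet1, 9181 for Tet2 and 10906 for Tet3. In each case the implied length was shorter than the union of the gene's exons in GENCODE M21, and any whole multiple of it would have been longer than that union, so the recovered reads of the members were taken as the reads counted. Genes annotated on the opposite strand overlap exons of Dnmt3a, Dnmt3b and Tet2, and whether strand was used in counting is not given in the sources used here.

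The design set GMPs of tumor-bearing mice against control GMPs, which asks here whether this machinery differs at the progenitor stage. Of the 7 genes, 0 were past 1.5-fold higher in 4T1-GMP and 1, Tet3, was past 1.5-fold lower, a call that was lost after centring on genes of like transcript length (-0.47). Over all tested genes, 9.80% were past 1.5-fold higher and 11.6% past 1.5-fold lower, so the count of members is near the background. The median log2 ratio of the 7 genes was -0.31, against 0.05 over all tested genes. Dnmt1 and Uhrf1 were higher in 4T1-GMP and the other 5 genes lower, but Dnmt1 was lower instead when Rn45s was taken out of the library sizes (-0.038) or after quantile normalization (-0.12).

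As deposited, the maintenance pair had the smallest log2 ratios in size of the 7, but after centring on genes of like transcript length Dnmt3a (-0.10) and Tet2 (-0.11) were smaller in size than Dnmt1 (0.17) and Uhrf1 (0.14). Dnmt1 (chromosome 9, 20907209 to 20959888, minus strand in GENCODE M21 on GRCm38) had 6772 reads in NTB-GMP and 21777 in 4T1-GMP. Its log2 ratio was 0.13 (95% Clopper-Pearson interval on the reads 0.09 to 0.16), against -0.038 without Rn45s and -0.12 after quantile normalization. It exceeded the log2 ratio of 57.1% of tested genes and so lay near the middle of them. Uhrf1 (chromosome 17, 56303321 to 56323486, plus strand) had 3116 and 10820 reads and a log2 ratio of 0.24 (0.18 to 0.29), above that of 67.6% of tested genes. Its sign held under every scaling tried, with the lowest value at 0.02 after quantile normalization.

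The de novo enzymes were lower in 4T1-GMP by nearly the same amount. Dnmt3a (chromosome 12, 3806007 to 3914443, plus strand) went from 1434 reads in NTB-GMP to 3428 in the deeper 4T1-GMP library, with a log2 ratio of -0.30 (-0.39 to -0.21). Dnmt3b (chromosome 2, 153649450 to 153687730, plus strand) had 645 and 1506 reads and a log2 ratio of -0.33 (-0.47 to -0.20). As folds these are 0.81 and 0.79 of the NTB-GMP level, and 23.0% and 21.1% of tested genes had a lower log2 ratio. Neither gene changed direction under any scaling tried.

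All of the TET genes were lower in 4T1-GMP, with Tet3 furthest. Tet3 (chromosome 6, 83362373 to 83459084, minus strand) had 2122 reads in NTB-GMP and 3921 in 4T1-GMP, a log2 ratio of -0.67 (-0.75 to -0.60) or 0.63 of the NTB-GMP level. Only 9.62% of tested genes had a lower log2 ratio. Tet1 (chromosome 10, 62804570 to 62908996, minus strand) had 775 and 1718 reads and a log2 ratio of -0.40 (-0.53 to -0.29). Tet2 (chromosome 3, 133463679 to 133545139, minus strand), the member of the family most tied to myeloid disease, had 1712 and 4054 reads and a log2 ratio of -0.31 (-0.40 to -0.23). In bulk RNA, fewer cells that express a gene and less RNA of it per cell cannot be told apart.

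**Figure D2:**
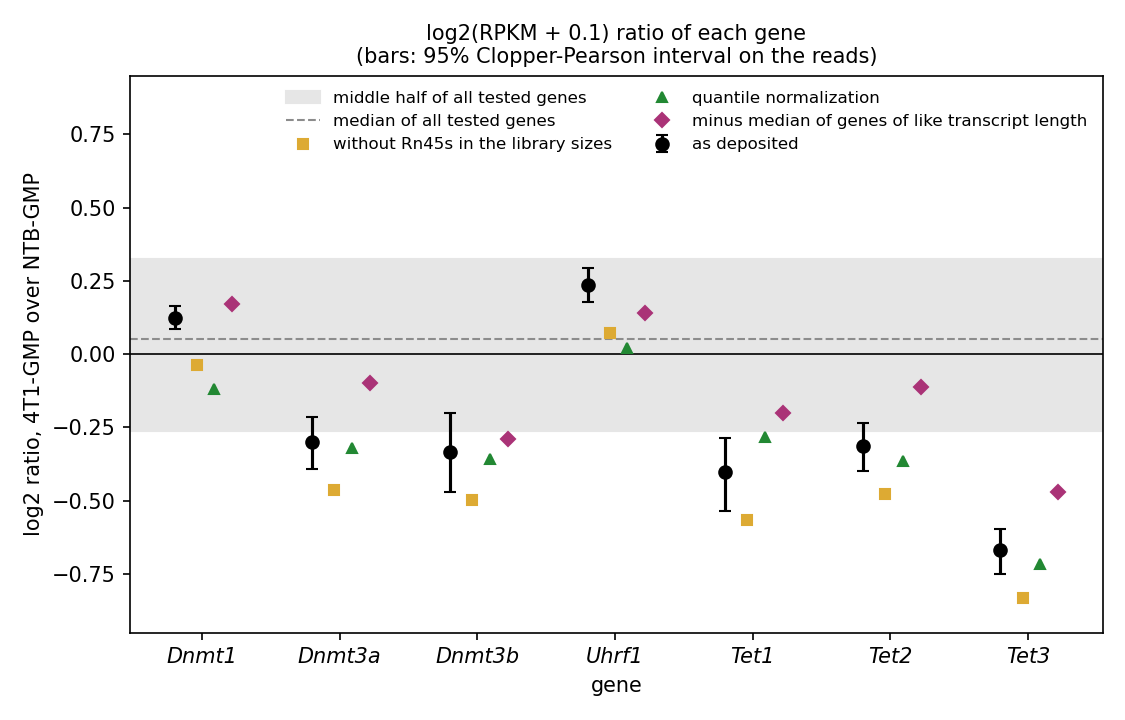
The log2 ratio of 4T1-GMP over NTB-GMP for each gene as deposited (black, bars for the 95% Clopper-Pearson interval on the reads) and under other settings (colored points for library sizes without Rn45s, quantile normalization and centring on genes of like transcript length), with the interquartile range of all tested genes in grey and their median dashed. Tet3 lies furthest down at -0.67, the sign of Dnmt1 flips to -0.038 without Rn45s and to -0.12 after quantile normalization, and the other genes keep their sign.

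Transcript length moved with the log2 ratio across the whole comparison, and most of the lower members are long. Among 10014 tested genes with an annotated length, the median log2 ratio was 0.19 for genes whose longest GENCODE transcript was under 2000 bases (2180 genes), 0.10 from 2000 to under 4000 bases (4148 genes), -0.05 from 4000 to under 8000 bases (3155 genes) and -0.20 at 8000 bases and over (531 genes). Dnmt3a, Tet1, Tet2 and Tet3 all fell in the longest bin, Dnmt1 and Dnmt3b in the next, and Uhrf1 in the bin from 2000 bases.

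Set against genes of like length, the 5 lower members had smaller differences. After subtraction of the median of its bin, Dnmt3a stood at -0.10 and Tet2 at -0.11, and 39.7% and 37.5% of the genes in the longest bin had a lower log2 ratio than they did. Tet1 stood at -0.20, with 30.1% of its bin lower. Tet3 stood at -0.47, with 15.4% of its bin lower, and was then within 1.5-fold (0.58 on the log2 scale), so that none of the 7 was past it. Dnmt3b, which is not in the longest bin, stood at -0.29 with 25.2% of its bin lower. Dnmt1 and Uhrf1 were at 0.17 and 0.14. The part of length in these differences was not tested beyond this subtraction.

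**Figure D3:**
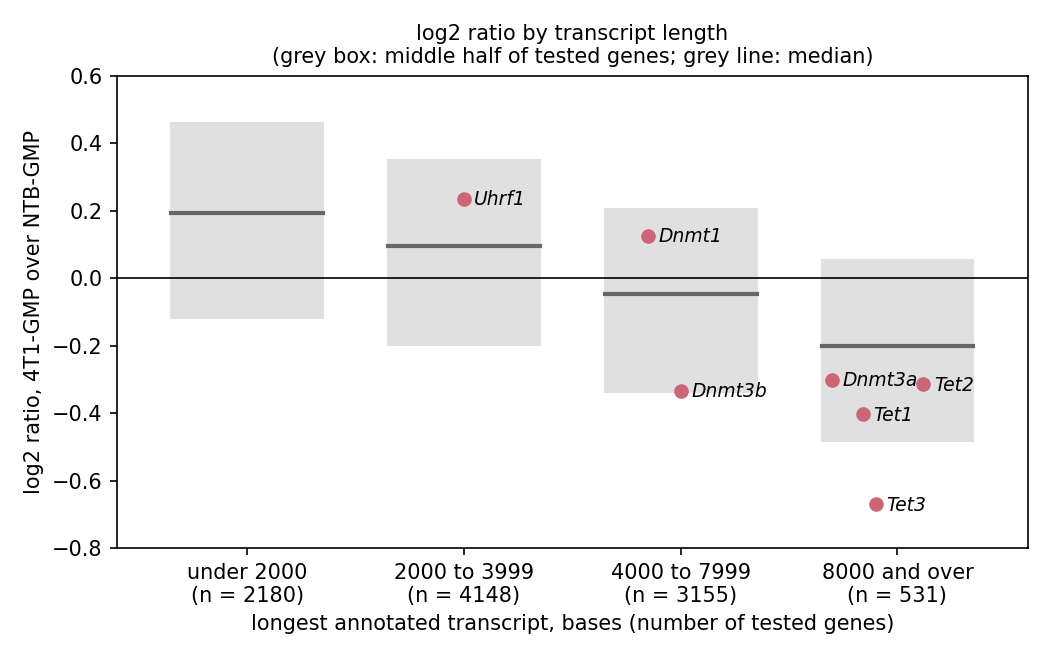
The log2 ratio of 4T1-GMP over NTB-GMP of tested genes by the length of their longest annotated transcript in bases, with grey boxes for the interquartile range and lines for the median of each bin, and red points for the 7 genes. The medians go down from 0.19 to -0.20 across the bins. Tet3 lies below the interquartile range of its bin, whereas Dnmt3a, Tet1 and Tet2 lie inside it, and Dnmt1 is drawn as deposited although its sign flips without Rn45s (-0.038) and after quantile normalization (-0.12).

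Ratios between members within a library are the same whatever library size is used. The ratio of Uhrf1 to Dnmt1 was 0.79 in NTB-GMP and 0.86 in 4T1-GMP, and the ratio of these ratios was 1.08 (95% exact conditional interval on the reads 1.03 to 1.13). The ratio of Dnmt3b to Dnmt3a was 1.03 and 1.01, and its change of 0.98 times (0.87 to 1.09) could not be told from 1 at this depth. The same held for Tet2 to Dnmt3a, at 1.29 and 1.28 (0.99 times, 0.91 to 1.08), the pair most often mutated in clonal hematopoiesis. Within the TET family, Tet1 to Tet2 was 0.30 and 0.28 (0.94 times, 0.84 to 1.04), also with 1 inside the interval.

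Tet3 stood apart from its own family. The ratio of Tet3 to Tet2 was 1.04 in NTB-GMP and 0.81 in 4T1-GMP, a change of 0.78 times (0.72 to 0.84). Tet3 made up 44.6% of the summed TET level in NTB-GMP and 38.9% in 4T1-GMP, while Tet2 made up 42.8% and 47.8% and Tet1 12.6% and 13.2%. Tet2 and Tet3 are in the same bin of transcript length.

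The summed TET level relative to the summed DNMT level was lower in 4T1-GMP. The summed level of the TET genes in NTB-GMP was 42.8 RPKM, against 30.8 RPKM in 4T1-GMP, and that of the DNMT genes was 134 and 138 RPKM. The TET to DNMT ratio was therefore 0.32 and 0.22, a change of 0.70 times (95% interval by a normal approximation to the counts 0.67 to 0.73). Dnmt1 alone made up 78.6% and 83.3% of the DNMT sum, so this ratio mainly sets the TET genes against Dnmt1. Set against Dnmt3a or Dnmt3b, Tet1 and Tet2 had changes whose intervals held 1, whereas Tet3 was lower against both. The TET genes are in the longest bin of transcript length and Dnmt1 in the next, and the part of length in this ratio was not tested.

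Of all 21 pairs of members, a count added after the values were seen, 15 had a ratio of ratios whose interval left out 1. In each of the 10 pairs that set Dnmt1 or Uhrf1 against a de novo or TET gene, the maintenance gene gained, by 1.35 to 1.88 times. The direction of these 10 follows from the log2 ratios of the single genes given above, so they are not a separate result. The share of pairs of other tested genes whose interval leaves out 1 was not computed. The 6 pairs whose interval held 1 were those among Dnmt3a, Dnmt3b, Tet1 and Tet2. Both maintenance genes have shorter longest transcripts than Dnmt3a and the TET genes, and the part of length in these ratios was not tested.

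**Figure D4:**
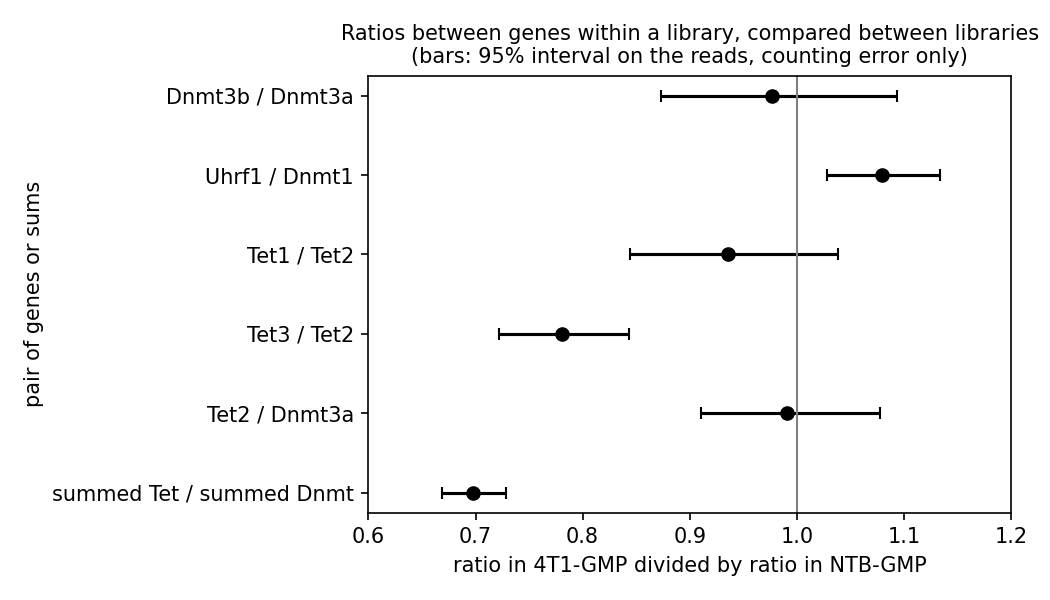
The ratio between a pair of genes, or of sums, in 4T1-GMP divided by the same ratio in NTB-GMP, with bars for the 95% interval on the reads (counting error only) and a line at 1. Tet3 to Tet2 (0.78) and summed Tet to summed Dnmt (0.70) lie below 1, Uhrf1 to Dnmt1 (1.08) lies above it, and the other intervals hold 1.

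The wider methylation machinery showed few differences of this size. Its 6 lists held 60 genes, of which 51 were tested, 6 were below the minimum level and 3 were at 0 in both libraries. Of the 51, 0 were past 1.5-fold higher and 3 past 1.5-fold lower (5.88%, against 11.6% of all tested genes). These counts are for the values as deposited with a pseudocount of 0.1, and those of some lists moved under other settings.

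Among 10 partners and relatives of the DNMTs, 9 were tested, 0 were past 1.5-fold, and the median log2 ratio was -0.07. Of those tested, 4 had a log2 ratio above 0 and 5 below. Pcna, the replication clamp that binds DNMT1, was at 200 RPKM in NTB-GMP and 257 in 4T1-GMP (log2 ratio 0.36), and Hells, a chromatin remodeler needed for DNA methylation, at 46.9 and 59.9 (0.35). Cdca7, which works with HELLS, had 90.2 and 86.1 RPKM (-0.07). Usp7, a deubiquitinase that acts on DNMT1 and UHRF1, had 56.5 and 63.5 RPKM (0.17), and Uhrf2, the relative of Uhrf1, had 20.5 and 18.1 (-0.18). Trdmt1, a DNMT relative that methylates tRNA, had 4.10 and 6.19 RPKM (0.58), just under the fold used. In this list 1 gene was past 1.5-fold higher with a pseudocount of 0.01 and 1 after quantile normalization, where 9.98% and 9.48% of all tested genes were. The remaining tested genes were all below 0: Zbtb24 (-0.31, interval -0.71 to 0.08), Pclaf (-0.30, interval -0.41 to -0.20) and Lig1 (-0.14, interval -0.22 to -0.05).

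Dnmt3l, which encodes the DNMT3 cofactor that has no catalytic activity of its own, was below the minimum level, and is named after its values were seen. It had 2 reads in NTB-GMP (0.07 RPKM) and 77 reads in 4T1-GMP (0.96 RPKM), a log2 ratio of 2.61 on the log2(RPKM + 0.1) scale. The counting interval, 1.805 to 6.78, was taken on the reads without the added 0.1, so it is not on that scale. Aire, on the opposite strand, overlaps an exon of Dnmt3l and was listed at 0 and 0.02 RPKM.

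The 8 histone methylation genes whose marks guide or exclude DNMTs had a median log2 ratio of -0.06, with 0 past 1.5-fold. After quantile normalization 1 was past it higher, where 9.48% of all tested genes were. Nsd1, whose H3K36 dimethylation is read by DNMT3A, had 47.9 RPKM in NTB-GMP and 40.9 in 4T1-GMP (log2 ratio -0.23). Setd2, which lays the H3K36 trimethylation read by DNMT3B, had 42.4 and 34.1 (-0.31). Trim28, a corepressor, was at 130 RPKM in both libraries (0.00).

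Of the 11 genes for TET partners and 2-oxoglutarate metabolism, 10 were tested and 1 was past 1.5-fold, with a median log2 ratio of 0.11. That gene was Cxxc5, a CXXC protein related to the DNA-binding domain of the TET family, with 11.2 RPKM in the control library and 5.35 in 4T1-GMP (log2 ratio -1.05, interval -1.29 to -0.82). Ogt, which encodes the GlcNAc transferase that binds TET proteins, had 51.9 and 35.8 RPKM (-0.53, interval -0.60 to -0.47). In this list 2 genes were past 1.5-fold lower without Rn45s, with upper quartile scaling and after quantile normalization. Of all tested genes, 17.0%, 13.5% and 10.3% were past it lower under these settings. Cxxc4 was listed at 0 in both libraries. Idh1 and Idh2, which make 2-oxoglutarate, had log2 ratios of 0.38 and 0.04, and Fh1, whose substrate fumarate inhibits TET enzymes, had 0.34.

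The 12 genes of base excision repair that act after TET oxidation had 10 tested members and a median log2 ratio of -0.06. Neil1, a DNA glycosylase, was past 1.5-fold lower at 2.69 RPKM in NTB-GMP (32 reads) and 1.40 in 4T1-GMP (49 reads; log2 ratio -0.90, interval -1.62 to -0.26). Tdg, the glycosylase that removes oxidized methylcytosine, was at 0.34 and 0.41 RPKM with 11 and 40 reads. GENCODE lists a processed pseudogene of Tdg, so reads shared with it may be missing from these counts and the level is uncertain.

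Of the 8 readers of methylated DNA, 6 were tested, with a median log2 ratio of 0.00. Zbtb33, which encodes the reader Kaiso, was past 1.5-fold lower at 8.13 RPKM in NTB-GMP and 5.14 in 4T1-GMP (log2 ratio -0.65, interval -0.83 to -0.49), and was within 1.5-fold with a pseudocount of 1. Without Rn45s, 2 readers were past it lower, where 17.0% of all tested genes were. Mbd2 and Mbd3 had log2 ratios of -0.02 and 0.01. The 8 tested genes of the methyl donor cycle had a median of 0.11 and 0 past 1.5-fold. Mat2a, which makes the methyl donor S-adenosylmethionine, had 96.8 and 105 RPKM (0.12), its regulatory partner Mat2b had 34.9 and 50.1 (0.52), and Ahcy, which clears the product of methyl transfer, had 53.8 and 51.8 (-0.06).

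**Figure D5:**
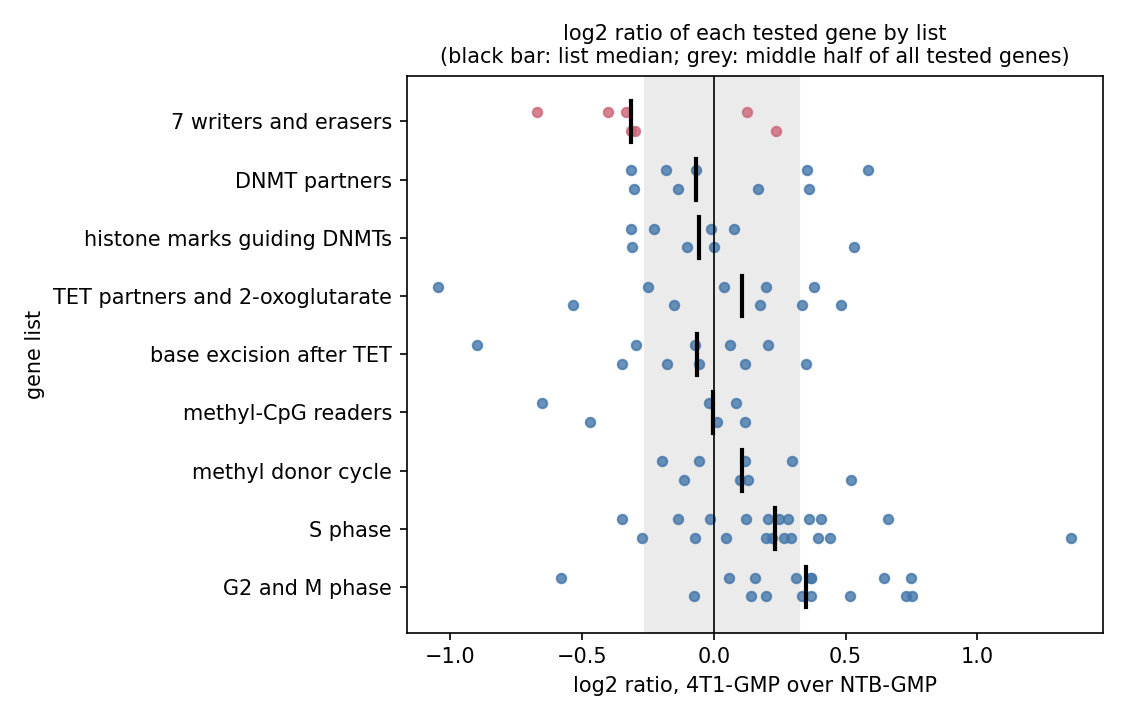
The log2 ratio of 4T1-GMP over NTB-GMP of each tested gene, by list, with black bars for list medians and grey for the interquartile range of all tested genes. The 7 writers and erasers have a median of -0.31, the 6 lists of the wider machinery have medians between -0.07 and 0.11, and the cell cycle lists have medians of 0.23 and 0.35. Without Rn45s in the library sizes every point would lie about 0.16 further left, so that Dnmt1 would be at -0.038, and quantile normalization puts it at -0.12.

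Dnmt1 and Uhrf1 are known as genes of replicating cells, so they were set beside cell cycle genes. Over all tested genes, 9.80% were past 1.5-fold higher and 11.6% past it lower. The 20 S-phase genes had a median log2 ratio of 0.23, with 2 past 1.5-fold higher (Rrm2 at 1.35 and Fen1 at 0.66) and 0 past it lower. Their count past it higher was near the share over all tested genes. Uhrf1 lay at the S-phase median, 0.00 above it, with 10 of the 20 genes below it, and Dnmt1 lay 0.11 under it, with 7 of the 20 below. The 5 other members lay 0.53 to 0.90 under the S-phase median. Dnmt3a, Tet1, Tet2 and Tet3 are in the longest bin of transcript length, and the part of length in these gaps was not tested. The 16 genes of G2 and M phase had a median of 0.35, with 4 past 1.5-fold higher (Ube2c at 0.75, Cdc20 at 0.75, Ccnb1 at 0.73 and Aurka at 0.65) and 0 past it lower. These counts depended on the scaling: 1 S-phase gene was past 1.5-fold higher without Rn45s and 1 after quantile normalization, and in G2 and M phase 1 and 0 genes were. In G2 and M phase, 1 gene was past it lower under both of these settings and also under median centring and upper quartile scaling. Without Rn45s, 5.73% of all tested genes were past it higher and 17.0% lower. After quantile normalization the shares were 9.48% and 10.3%. Under median centring and upper quartile scaling, 13.1% and 13.5% of all tested genes were past it lower.

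Markers of other cell types also differed between the libraries. The shares over all tested genes were 9.80% past 1.5-fold higher and 11.6% past it lower. Of the 11 mature neutrophil markers, 11 were past 1.5-fold higher in 4T1-GMP, and their summed level was 514 RPKM in NTB-GMP and 4067 in 4T1-GMP, the largest log2 ratio being that of Mmp9 (4.52). Of 8 GMP gate and granule genes, 4 were past 1.5-fold higher (most of all Ms4a3, 1.35) and 3 lower (most of all Cd34, -1.37). Each of the 8 tested of 10 monocyte and dendritic markers was past 1.5-fold lower, with a summed level over the list of 220 and 68.7 RPKM and Ly86 furthest at -3.18. The 5 basophil and mast cell markers were all past it lower, at 425 and 171 RPKM in sum, with Gzmb furthest at -3.12. Of the 4 tested of 9 stem and early progenitor markers, 3 were past it lower (Gata2 furthest at -2.50), with sums of 62.2 and 23.5 RPKM, and the 3 tested of 8 erythroid and megakaryocyte markers were past it lower (Klf1 furthest at -2.42), with sums of 19.95 and 6.10 RPKM. Hba-a1 and Hbb-bt were listed at 0 in both libraries, but hemoglobin genes have near-identical copies that can lose shared reads. Gp1bb was listed at 0 in NTB-GMP. Of the 8 lymphoid markers only Nkg7 was tested (190 and 337 RPKM), Cd3e, Ncr1, Cd3g, Cd79a and Pax5 all being at 0.24 RPKM or lower in each library. The part of these cells in the differences of the 7 genes was not tested.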

How the data were processed

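Total RNA of GMPs sorted from bone marrow was sequenced in 2 libraries, 1 per group. The authors deposited RPKM, 1 value per symbol and library. The submitters' processing notes name the build mm10 and the tools CASAVA 1.8.2, cutadapt 1.2.1, TopHat2 2.0.13, Picard 1.97, HTSeq 0.6.1 and edgeR 3.12.1, without roles or order. Gene model and lengths are not given in the sources used here, and intervals and floors cover counting error only because reads are not independent molecules. Reads were recovered as whole numbers over a gene length (relative tolerance 1e-11, lengths up to 120000 bases). The implied library sizes were not whole numbers (10180365.239 and 30016262.796), and recovered reads came to 93.2% and 87.8% of them. For some genes reads are low by a common factor, which widens their intervals.

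Ratios used a pseudocount of 0.1, a minimum of 1 RPKM in the mean of both libraries, and a fold of 1.5. A count of 0 allows up to 3 reads. Intervals are at 95%, and those of log2 ratios were taken on the reads without a pseudocount. The genes, lists and alternatives were chosen with earlier results of these data known. Text names all 7 members, the genes of each pathway or cell cycle list past the fold (up to 3 each way), and the outermost of each cell type list. Other pathway genes are named for their roles, or to complete the list of DNMT partners, with values seen. Alternatives were pseudocounts of 1 and 0.01, library sizes without Rn45s, median, upper quartile and quantile scaling, all genes above 0, a minimum of 5, and folds of 1.25 and 2. Centring by transcript length was added after seeing the data. Ratios between members were also taken without gene length. Pclaf was matched through a RefSeq synonym. Scripts were tested on simulated data. Python 3.11.15, numpy 2.4.6, scipy 1.17.1 and matplotlib 3.10.9 were used.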

Additional observations from a re-analysis of the deposited data

How the results depend on the processing

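Under the alternatives, 30 values of the members' log2 ratios lay within the counting interval, 17 lay outside it with the same sign and 2 had the opposite sign, both for Dnmt1 (0.13 as reported): -0.038 once Rn45s was excluded from library sizes and -0.12 after quantile normalization. Leaving out Rn45s, which lowers every ratio by construction, gave -0.46 for Dnmt3a, -0.50 for Dnmt3b, 0.072 for Uhrf1, -0.56 for Tet1, -0.48 for Tet2 and -0.83 for Tet3. Quantile normalization gave 0.023 for Uhrf1 and -0.28 for Tet1, upper quartile scaling 0.061 for Dnmt1 and 0.17 for Uhrf1, and centring on the median of all tested genes 0.075 for Dnmt1. Centring on genes of like transcript length gave 0.17 for Dnmt1, 0.14 for Uhrf1, -0.10 for Dnmt3a, -0.20 for Tet1, -0.11 for Tet2 and -0.47 for Tet3. Apart from Rn45s, the cause of these moves was not tested. Lower members numbered 3 at the smaller fold and 0 at 2-fold, against 1 at 1.5-fold. The shares of all tested genes past these other folds were not computed, so the counts of 3 and 0 have no background beside them. At 1.5-fold the count stayed at 1 under the other library scalings and pseudocounts. Centring on transcript length put Tet3, the only lower member at that fold, within 1.5-fold. Of the counts of list genes past the fold, 214 stayed within 1.5 times and 26 did not, among them those of the cell cycle lists under the scalings given above. Depth limits genes with few reads, such as Dnmt3l, Neil1 and Tdg, and the control library was the shallower of the pair. No paired analysis was possible because the groups hold 1 library apiece, so no replicate could be left out either.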
